A study of Mus musculus with 24 samples.

Results

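The T cell receptor (TCR) alpha chain was followed in tumor-infiltrating T cells in 2 forms. The first was the RNA matrix, in which 128 of 32285 gene rows carry a symbol that starts with Trav, the V segments of the alpha chain locus. These rows were read in the 14544 cells with a Cd3e UMI (unique molecular identifier, 1 counted RNA molecule) among the 57355 cells that passed the limits on cells, of 144994 barcodes in all. The second was the set of assembled receptor contigs, of which 7378 of 15514 were alpha chains (TRA) and 8136 were beta chains (TRB). TRA contigs were found in 6866 of the 8292 cells with a contig, and they held 88 Trav genes and 43 Traj genes. Cells of 1 library with the same V gene, J gene and CDR3 nucleotides were called a TRA clone, which gave 3830 clones. The limits on cells were not applied to contigs, and of the 8292 contig barcodes 6576 passed them and 93 were not in the RNA matrix.

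Panc02 mouse pancreatic tumors were grown in male C57BL/6 mice, and tumors were pooled by treatment, so that each of the 8 treatments was 1 pool. Each pool was sequenced as a whole-tumor library and as a Percoll library, in which leukocytes were enriched by density, and these 2 preparations were also the 2 sequencing batches. TCR contigs covered the 8 Percoll libraries. The 4 pools with the vaccine PancVAX, given on days 12 and 19 at 50 ug of peptides per the labels (50 ug of each peptide per the methods), were PancVAX alone, PancVAX with both checkpoint antibodies (anti-PD-1, anti-CTLA-4), PancVAX with anti-PD-1, and PancVAX with anti-CTLA-4. The 4 pools without it were anti-PD-1 with anti-CTLA-4, anti-CTLA-4, anti-PD-1, and isotype control. Dosing of anti-PD-1 began on day 12 and that of anti-CTLA-4 on day 15, each at 100 ug, and tumors were taken on day 38 per the labels and methods, while another passage of the study gives an earlier day. The vaccine held neoantigen peptides together with an oil-in-water adjuvant and a STING agonist, so that the effects of peptides and adjuvants cannot be told apart. Mice within a pool were not separate samples. Tests of PancVAX took the pool or library as the unit, and tests within libraries took the library as a block. edgeR shares its estimate of spread among the segments or genes tested. Its small p-values for segments therefore do not measure the spread between 8 libraries alone. Below, values of single libraries follow the order of treatments in this paragraph.

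The alpha chain of a T cell receptor is built in the thymus by joining a V segment to a J segment, with a few bases lost or added at the joint, the center of the CDR3 that contacts peptide and MHC. The alpha locus can recombine again after a first join, from the V and J segments nearest to each other outward, and both copies of the locus can be used, so that a T cell can carry a second alpha chain. The beta locus is largely silenced after the first successful join. In C57BL/6 mice the V part of the alpha locus holds long duplications, and the copies of a segment are named with d or n, as in Trav16, Trav16d-dv11 and Trav16n. In RefSeq the 128 Trav rows lay on chromosome 14 at 52427967–53977678 (GRCm38.p6), 112 as V segments and 16 as V segment pseudogenes. They fell into 57 groups of named copies, and 40 of these groups, with 111 rows, held 2 or more rows.

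Cd3e-positive cells carried other T cell markers. Cd3d had a UMI in 87.1% of them, Cd3g in 88.8%, the alpha constant gene Trac in 58.5%, Cd8b1 in 67.7%, Cd8a in 60.8% and Cd4 in 10.4%. Markers of other cells were found as well, such as the macrophage gene C1qa in 14.4% and the keratin genes Krt18 in 12.4% and Krt8 in 9.76%. Total UMIs per RNA library ranged from 77132398 to 176233225, and TRA contigs per Percoll library from 413 (isotype control) to 1423 (PancVAX with both antibodies). The library of PancVAX with anti-PD-1 stood apart, with a TRA contig in 46.3% of its Cd3e-positive cells against 69.1–77.4% in the other 7. It also had the lowest median of UMIs per TRA contig, 3 against 4 or 5, and 25.8% of its TRB cells lacked a TRA contig against 14.2–18.3%. Of 132035 barcode sequences, 12150 occurred in 2 or more RNA libraries. Among contig barcodes 32 of 8260 did, and none came with the same contig.

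The CDR3 sequences that the results below turn on are shown from the first base of the CDR3 to its last. The TRA chain with the most cells in each library comes first. Of these 8 chains, 5 used Traj7, and capitals mark the 27 bases that most Traj7 chains shared.
PancVAX, Trav7d-2 with Traj7, 17 cells: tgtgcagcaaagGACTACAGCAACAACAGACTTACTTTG
PancVAX with both antibodies, Trav7n-6 with Traj7, 104 cells: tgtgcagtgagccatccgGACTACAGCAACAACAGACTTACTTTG
PancVAX with anti-PD-1, Trav7d-2 with Traj7, 38 cells: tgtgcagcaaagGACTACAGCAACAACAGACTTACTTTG
PancVAX with anti-CTLA-4, Trav13-4-dv7 with Traj48, 25 cells: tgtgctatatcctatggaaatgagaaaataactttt
anti-PD-1 with anti-CTLA-4, Trav7d-2 with Traj7, 76 cells: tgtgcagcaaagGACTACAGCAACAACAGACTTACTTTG
anti-CTLA-4, Trav3d-3 with Traj7, 92 cells: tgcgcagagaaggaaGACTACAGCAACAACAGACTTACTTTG
anti-PD-1, Trav5-4 with Traj30, 61 cells: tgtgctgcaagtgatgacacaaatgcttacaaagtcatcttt
isotype control, Trav7d-4 with Traj22, 21 cells: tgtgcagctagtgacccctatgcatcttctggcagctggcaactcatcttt
The same nucleotide sequence with Trav7d-2 led 3 of the libraries. The leading chain held 2.29% (95% exact binomial interval 1.34–3.64%) of the TRA cells with PancVAX alone and 11.2% (9.14–13.6%) with anti-CTLA-4, the lowest and the highest share. Intervals here cover counting error only.

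Chains found in many libraries with many different TRB partners are shown next, because they were met again in separate pools.
Trav6-7-dv9 with Traj50, 8 libraries, 21 cells, 13 TRB chains: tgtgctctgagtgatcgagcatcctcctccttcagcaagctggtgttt
Trav6-7-dv9 with Traj50, 7 libraries, 28 cells, 20 TRB chains: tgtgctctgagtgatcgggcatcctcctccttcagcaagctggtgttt
Trav16n with Traj16, 7 libraries, 40 cells, 15 TRB chains: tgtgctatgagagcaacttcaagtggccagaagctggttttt
Trav10 with Traj7, 6 libraries, 38 cells, 10 TRB chains: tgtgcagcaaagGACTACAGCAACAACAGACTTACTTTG
The Trav10 chain and the leading Trav7d-2 chain had the same CDR3 bases and differed in the V gene. A chain was the same V gene, J gene and CDR3 nucleotides in any library. Of 3587 chains, 170 (4.74%) were found in 2 or more libraries and 14 in 4 or more. Pairs of a TRA and a TRB chain were found again in fewer cases, 10 of 3654 pairs in 2 or more libraries.

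V gene use was broad. Averaged over the 8 libraries, the 10 most used of 88 Trav genes held 33.1% of TRA clones. They were Trav16n (4.77% ± 1.75 of clones, SD, n = 8 libraries), Trav6-6 (4.41% ± 1.52), Trav7d-2 (4.04% ± 1.58), Trav9d-3 (3.61% ± 0.814), Trav3d-3 (3.57% ± 0.941), Trav12d-2 (2.71% ± 1.05), Trav6n-7 (2.71% ± 0.820), Trav16 (2.66% ± 1.74), Trav12-2 (2.44% ± 0.981) and Trav12d-3 (2.17% ± 0.858). Neighbors in this order differed by less than their spread over libraries. All 10 belonged to groups of named copies, so that the assignment of a contig to 1 of the copies is uncertain.

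J gene use was read in the same way. As fewer J than V genes were in use, the shares of the 10 leading genes do not tell which use was more even. The 10 most used of 43 Traj genes held 46.0% of clones, led by Traj7 (9.55% ± 3.26 of clones, SD, n = 8 libraries, range 5.94–14.7%), which lies at chr14:54211470-54211528 (GRCm38.p6) toward the constant gene. Traj22 followed with 6.21% ± 1.72 and Traj26 with 4.79% ± 1.45. The next 7, Traj31, Traj23, Traj37, Traj33, Traj30, Traj49 and Traj27, lay between 4.27% and 3.04% and overlapped in their spread. Counted by contigs in place of clones Traj7 came to 1540 of 7378, ahead of 389 for the next J gene.

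The J gene of a clone followed the position of its V gene along the locus. Trav1 and Trav2, at the end of the V cluster farthest from the J segments, had a median J gene number of 22 over 65 clones, and 3.08% (95% exact binomial interval 0.375–10.7%) of their clones used a J gene numbered 40 or higher, the J genes nearest to the V cluster. Trav17 to Trav21-dv12, the V genes next to the J cluster, had a median of 49 over 95 clones, and 78.9% (69.4–86.6%) of their clones used Traj40 or higher. For all other V genes the median was 27 and the share 22.9% (21.5–24.3%). Over the 3830 clones the Spearman correlation of V gene order with J number was 0.43, and 0.41 over the 3495 clones without Traj7, as a description of clones that share their libraries. Trav21-dv12, the last V gene in this order, ranged from Traj32 to Traj58, and Trav1, the first, from Traj4 to Traj37. The combinations with the most clones were Trav7d-2 with Traj7 (48 clones), Trav9d-3 with Traj7 (29) and Trav6-7-dv9 with Traj50 (24).

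**Figure D1:**
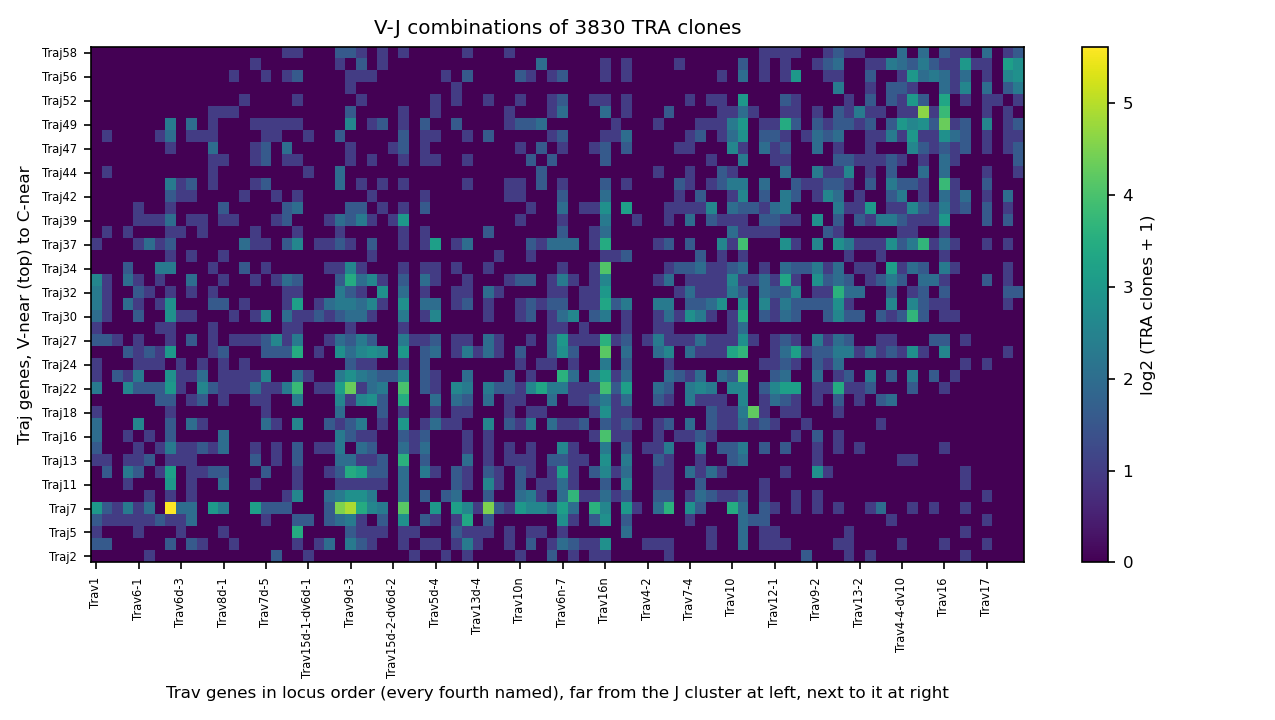
The heat map gives the number of TRA clones, as log2(clones + 1), for each Trav gene in locus order (x axis) and each Traj gene from the V-near to the constant-near end (y axis), over the 8 Percoll libraries. V genes next to the J cluster, at right, sat mostly at the top (median J number 49), Trav1 and Trav2 at left lower down (median 22), and Traj7 formed a horizontal band across V genes.

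The Trav rows of the RNA matrix detected T cells but not every V gene. A Trav UMI was found in 51.2% (95% exact binomial interval 50.4–52.0%) of Cd3e-positive cells, at a median depth of 3743 UMIs. Among cells with a Csf1r UMI and no Cd3 gene, taken as background, the share was 0.867% (0.706–1.05%) at a median depth of 4934 UMIs. After each cell was thinned to 1000 UMIs the shares were 24.7% and 0.245%. Of the 128 rows, 87 had a UMI in Cd3e-positive cells and 41 had none.

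Cells with exactly 1 TRA contig showed which rows were read. In 5004 such cells a UMI in the row of the contig's own V gene was found in 52.4% (95% exact binomial interval 51.0–53.8%), and among cells with any Trav UMI the leading row was that of the contig in 80.1% (78.6–81.4%). The 67 V genes with at least 20 such cells fell mostly to the extremes. For 45 of them the own row had a UMI in over 50% of cells, as for Trav12-2 with 93.2% of 147 cells, Trav5-4 with 94.2% of 156 cells and Trav16n with 81.9% of 282 cells. For 18 it had a UMI in under 5%, as for Trav6-6 with 0 of 232 cells, which allows a share of up to 1.58% by the exact interval, Trav9d-3 with 0.397% of 252 cells and Trav7d-2 with 1.24% of 403 cells. The other 4 lay between.

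All 18 V genes with unread rows had a named copy, and the 7 V genes without a named copy all had read rows, but 38 genes with a copy were read as well. In the 1937 cells of the 18 genes any Trav UMI was found in 23.3%, against 89.6% in the 2926 cells of the other 49. The 18 genes held 38.5% of all TRA contigs, among them Trav6-6, Trav7d-2, Trav9d-3, Trav3d-3, Trav12d-2, Trav6n-7 and Trav12d-3 of the 10 most used. How reads of near-identical copies were assigned was not tested. The Traj rows were nearly empty, with 42 UMIs over 60 rows and 0 for Traj7.

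**Figure D2:**
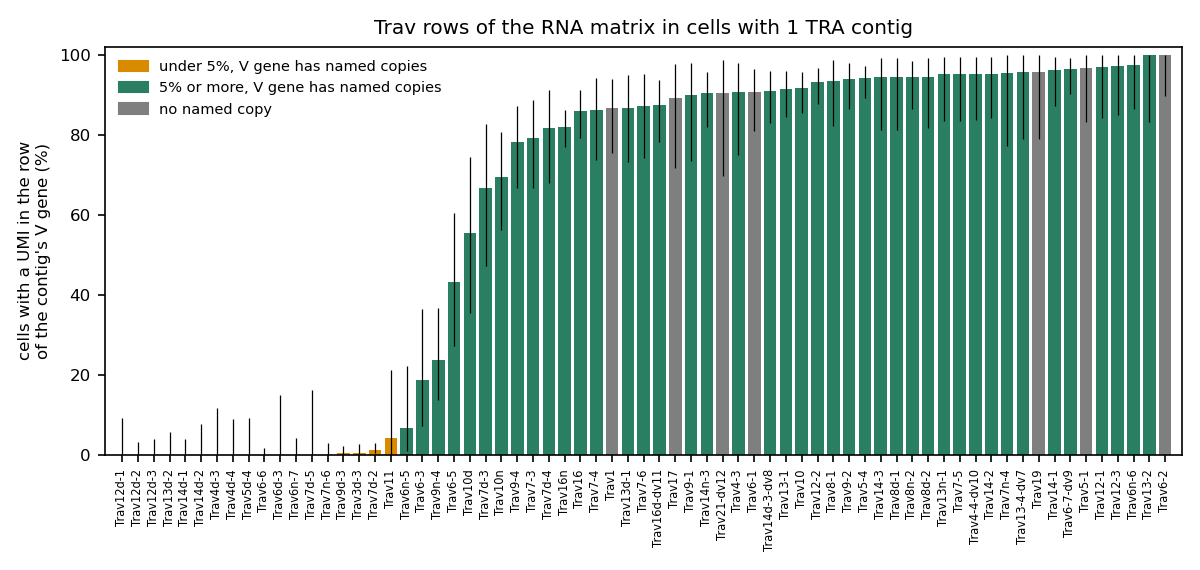
Bars give the share of cells with 1 TRA contig that had a UMI in the RNA row of the contig's V gene, for the 67 Trav genes with at least 20 cells, and lines are 95% exact binomial intervals. The 18 genes at left lay under 5%, and the 45 at right lay over 50%.

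Cells with 2 TRA contigs were more frequent than cells with 2 TRB contigs. Of 6511 cells with both kinds of chain, 512 (7.86%, 95% exact binomial interval 7.22–8.54%) carried 2 TRA, 199 (3.06%, 2.65–3.50%) carried 2 TRB, and 25 carried 2 of each. No cell had more than 2 contigs of 1 kind. Among cells with 1 kind of chain only, 355 had 1 TRA and 1426 had 1 TRB, and 0 had 2. The deposited contigs may thus have been limited in number per cell, which was not tested. Cells with 2 TRB, a class that also takes in doublets, had 2 TRA in 12.6% (8.30–17.98%), against 7.72% (7.07–8.40%) of cells with 1 TRB. The larger of 2 TRA contigs had a median of 5 UMIs and the smaller of 3, against 4 for a single TRA. In all 8 libraries the share with 2 TRA was above the share with 2 TRB.

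**Figure D3:**
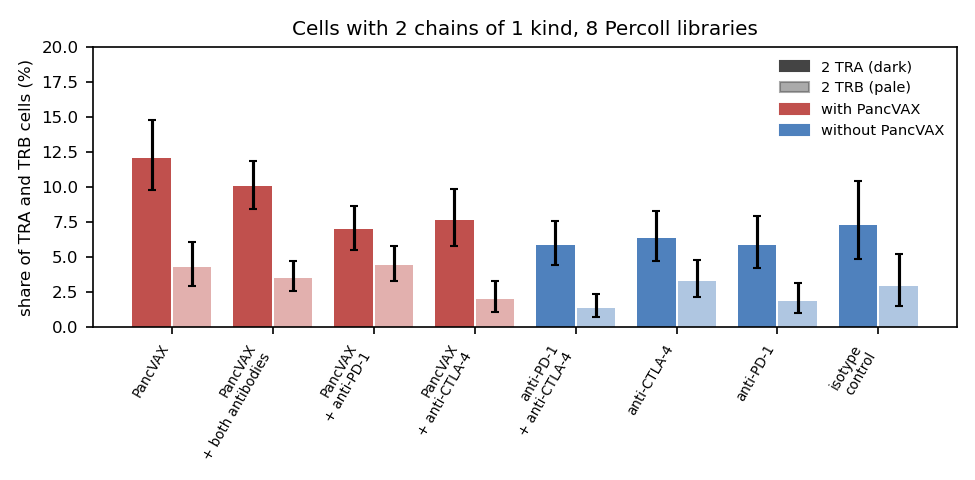
Bars give the share of cells with TRA and TRB contigs that carried 2 TRA (dark) or 2 TRB (pale) in each Percoll library, with 95% exact binomial intervals as lines, in red with and in blue without PancVAX. The share with 2 TRA lay between 5.89% and 12.1% and the share with 2 TRB between 1.40% and 4.42%.

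With PancVAX the share of cells with 2 TRA was 12.1%, 10.1%, 6.99% and 7.66%. Without it the share was 5.91%, 6.37%, 5.89% and 7.28%. The groups overlapped, since the library of PancVAX with anti-PD-1 lay below isotype control. The means were 9.20% ± 2.34 and 6.36% ± 0.650 (SD, n = 4 libraries each), a difference that did not pass the exact two-sided permutation test over 70 splits (p = 0.0571, adjusted p = 0.349 over a family of 11 values, smallest possible p = 0.0286). Without the library of PancVAX with anti-PD-1 the difference was 3.58 percentage points (exact permutation p = 0.0286, not adjusted), and without that of PancVAX alone it was 1.88 (exact permutation p = 0.0857). Between pools matched by antibody the share was higher with PancVAX in 4 of 4 pairs, by 1.10–4.83 points (exact sign-flip permutation p = 0.125, the smallest that 4 pairs allow).

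The 2 alpha chains of a cell lay close to each other in the J cluster. In the 487 cells with 2 TRA and 1 TRB there were 338 distinct chain pairs, and their J numbers had a Spearman correlation of 0.71, a description of pairs drawn from shared libraries. The J numbers differed by a median of 6, and by 10 or less in 69.2% (95% exact binomial interval 64.0–74.1%) of pairs. Between clones of different cells the median difference was 15 and the share was 36.8%. Traj7 was in 1 chain of 39 pairs and in both chains of 0.

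Within a TRB clone cells mostly carried the same alpha chain. A TRB clone was defined by library, Trbv gene and CDR3 nucleotides, and 419 TRB clones had at least 3 cells with a TRA contig (3106 cells). The leading TRA chain was found in every cell of 374 of them (89.3%), and 339 (80.9%) had a single TRA chain only. In 42 TRB clones (10.0%, 95% exact binomial interval 7.32–13.3%) the same 2 TRA chains were found together in 2 or more cells. These 42 clones held 172 of the 194 cells with 2 TRA in such TRB clones (88.7%). Both chains were seen in 58.7% of the 293 cells of these clones.

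3 of the 42 clones show the forms this took, and the chains are printed in the order of the number of cells.
PancVAX with anti-CTLA-4, first chain, Trav13-4-dv7 with Traj48, 24 of 30 cells: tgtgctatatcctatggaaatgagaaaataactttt
PancVAX with anti-CTLA-4, second chain, Trav16 with Traj26, 18 of 30 cells: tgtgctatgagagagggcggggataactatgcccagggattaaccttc
anti-CTLA-4, first chain, Trav7d-5 with Traj17, 15 of 17 cells: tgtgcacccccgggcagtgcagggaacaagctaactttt
anti-CTLA-4, second chain, Trav7-3 with Traj7, 14 of 17 cells: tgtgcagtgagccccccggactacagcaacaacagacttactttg
PancVAX with both antibodies, first chain, Trav9-1 with Traj43, 15 of 15 cells: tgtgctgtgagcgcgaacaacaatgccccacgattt
PancVAX with both antibodies, second chain, Trav10 with Traj32, 12 of 15 cells: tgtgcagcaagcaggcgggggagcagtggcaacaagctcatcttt
Each of these clones held 12 cells with both chains. The first chain of the first clone is also the leading chain of its library shown above. By library the number of clones with a recurring pair was 8 of 45, 13 of 92, 5 of 82 and 2 of 44 with PancVAX (4.55–17.8%) and 5 of 48, 5 of 46, 2 of 39 and 2 of 23 without it (5.13–10.9%), so that the shares overlapped.

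V and J gene use differed between libraries with and without PancVAX. The comparison asked which segments gained or lost clones, each clone counted once, with both antibodies as covariates in edgeR's quasi-likelihood test. A segment was called at an adjusted p below 0.05 and an absolute log2 fold change above 0.5. Of 75 segments of both chains that passed the filter on low counts 15 were called (20%), 8 higher (10.7%) and 7 lower (9.33%). Among them were 5 TRA segments higher and 4 lower of 43 tested. Trav16, Trav16n and Traj7 kept their calls when each of the 8 pools was left out in turn. Trav7d-2 and Trav6-6 kept theirs in 6 of 8 cases, Trav14d-1 in 4, Trav14n-3 and Traj26 in 3 and Traj32 in 2. In clones of CD8+ cells alone Trav6-6 was not called (adjusted p = 0.0554, edgeR), and Trav14d-1 and Trav14n-3 did not pass the filter on low counts. Counted by cells in place of clones, Traj7, Trav16 and Trav7d-2 kept their calls. Trav16n (adjusted p = 0.0519, edgeR) and the rest did not.

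The higher TRA segments were 4 V genes and 1 J gene. Trav16 (chr14:53743174-53743705) held 4.55%, 3.17%, 3.53% and 5.28% of clones with PancVAX and 1.44%, 1.81%, 1.08% and 0.439% without it. All 4 libraries with PancVAX lay above all 4 without it, and the log2 fold change was 1.64 (SE 0.33, adjusted p = 4.88e-05, edgeR). Trav16n (chr14:53351090-53351621) held 6.72%, 6.33%, 6.44% and 5.87% with and 4.07%, 3.10%, 2.97% and 2.63% without PancVAX, again without overlap (log2 fold change 0.95, SE 0.23, adjusted p = 0.000726). Trav14d-1 (2.92% ± 0.835 against 1.35% ± 0.201, SD, n = 4 libraries each) and Trav14n-3 (2.50% ± 0.623 against 1.22% ± 0.107) rose by a log2 of 1.12 and 1.04. Traj26 rose by 0.66, from 3.78% ± 0.861 to 5.81% ± 1.18 of clones, and its groups overlapped.

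The lower segments were 2 J genes and 2 V genes. Traj7 fell by a log2 of 0.88 (SE 0.15, adjusted p = 2.28e-06). Trav7d-2 fell by 0.86, from 5.15% ± 1.32 to 2.93% ± 0.860 of clones, and Trav6-6 by 0.71, from 5.54% ± 1.13 to 3.29% ± 0.842. Traj32 fell by 0.81, from 3.56% ± 0.896 to 2.07% ± 0.760. Of the 140 clones with Trav7d-2, 48 used Traj7, and without Traj7 chains the log2 difference of Trav7d-2 was −0.74 and was no longer called. Of the higher segments Traj26 (adjusted p = 0.077, edgeR) and Trav14n-3 (adjusted p = 0.105) were also no longer called without Traj7 chains. DESeq2 called 1 TRA segment higher and 1 lower, so that Trav16 and Trav16n did not both keep their calls there.

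**Figure D4:**
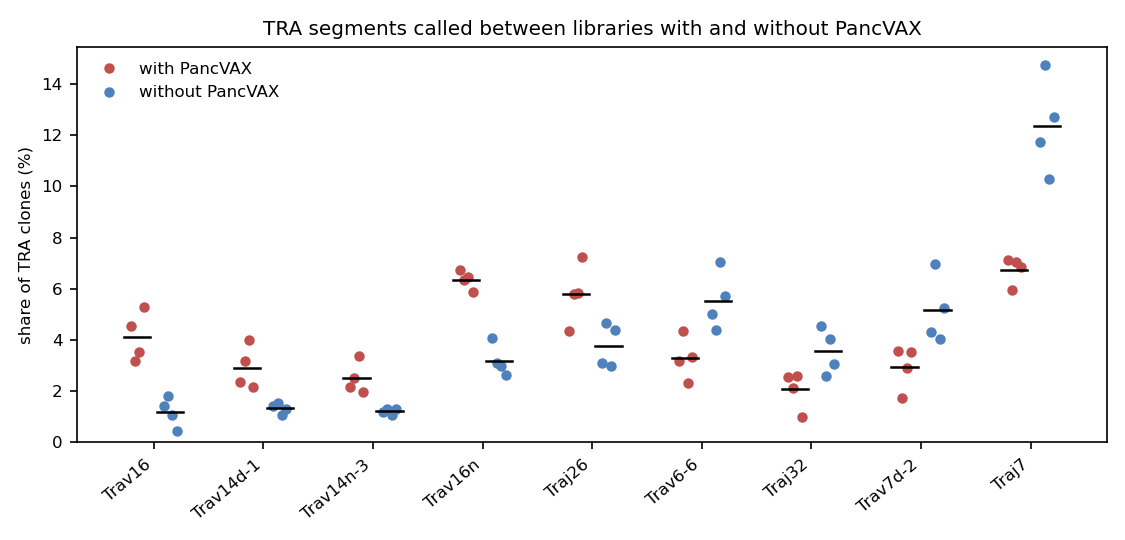
Points give the share of TRA clones in each Percoll library for the 9 called TRA segments (x axis, ordered by fold change), in red with and in blue without PancVAX, and black lines are means of 4 libraries. Traj7 lay at 5.94–7.11% with and 10.3–14.7% without PancVAX.

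With the named copies summed, Trav16, Trav16d-dv11 and Trav16n together held 12.3%, 11.6%, 11.4% and 12.5% of clones with PancVAX. Without PancVAX they held 6.22%, 6.46%, 5.95% and 3.95%. The log2 fold change of the sum was 1.00 (SE 0.17, adjusted p = 3.64e-07, edgeR), so that for Trav16 the call did not rest on the split among copies. Summed in the same way, Trav14-3 (1.01) and Trav14-1 (0.93) were also called higher, and Trav7-4 (−1.24), Trav8-2 (−1.01) and Trav7-2 (−0.91) lower. The Trav6-6 sum was not called (−0.49, adjusted p = 0.078, edgeR). Trav16d-dv11 by itself held 1.46% ± 0.469 and 1.26% ± 0.555. Cells with Cd8a or Cd8b1 and no Cd4 UMI made up 91.2% of 683 Trav16 contigs of any copy and 74.1% of other contigs. Traj26 was the J gene with the most Trav16 clones (7.03% of 370, against 4.83% of other clones), and Trbv13-1 and Trbv12-2 were the most frequent partners, each in 11.8% of 357 pairs. By library Trbv12-2 was in 9 of 59, 7 of 83, 9 of 71 and 14 of 61 Trav16 pairs with PancVAX (8.43–23.0%, against 5.45–8.75% of pairs with other V genes). Without PancVAX it was in 1 of 25, 0 of 25, 2 of 22 and 0 of 11 Trav16 pairs, against 2.82–4.79% of other pairs. The share beside Trav16 was thus above that of other pairs in the 4 libraries with PancVAX and in 2 of the 4 without it, and it was not tested.

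The difference in Traj7 was larger among cells than among clones. Traj7 was carried by 14.8%, 16.3%, 13.8% and 11.3% of TRA cells with PancVAX and by 35.7%, 41.8%, 23.5% and 29.3% without it. Among clones the shares were 7.11%, 5.94%, 7.06% and 6.85% with and 11.7%, 14.7%, 10.3% and 12.7% without PancVAX. The groups did not overlap in either count, and the call for Traj7 held with cells in place of clones (log2 fold change −1.22, SE 0.24), in clones of CD8+ cells alone (−1.19, SE 0.14) and in every other setting in which it was tested. Among the fewer CD4+ cells, those with a Cd4 UMI and neither Cd8a nor Cd8b1, the means ran the other way. Traj7 was carried by 5 of 75, 10 of 150, 7 of 143 and 3 of 92 of them with PancVAX (3.26–6.67%) and by 0 of 73, 3 of 60, 0 of 67 and 0 of 32 without it. The groups overlapped, a count of 0 allows up to 4.93–10.9% by the exact interval, and the difference was not tested. A Traj7 clone had on average 3.44 ± 0.945 cells with PancVAX and 5.35 ± 1.44 without it (SD, n = 4 libraries each), and other clones had 1.64 ± 0.125 and 1.68 ± 0.152 cells. In the library of PancVAX with both antibodies 49.1% of Traj7 cells belonged to 1 clone, and in the other libraries 14.9–26.8% did.

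**Figure D5:**
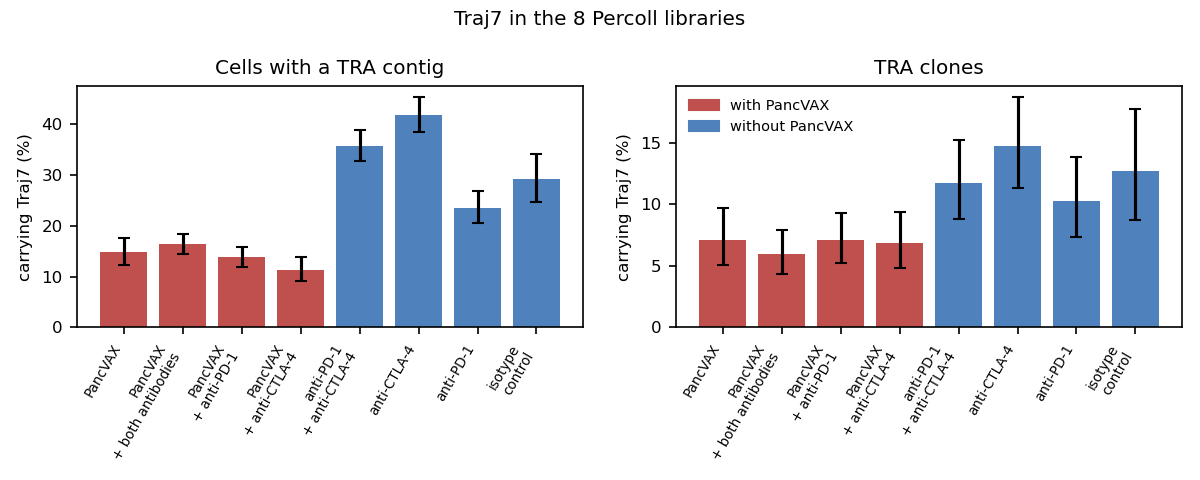
Bars give the share of TRA cells (left) and of TRA clones (right) that carried Traj7 in each Percoll library, with 95% exact binomial intervals as lines, in red with and in blue without PancVAX. The 4 libraries without PancVAX sat between 23.5% and 41.8% of cells and the 4 with it between 11.3% and 16.3%.

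Traj7 chains were described by V gene, CDR3 end and CDR3 length. They used 55 V genes in 335 clones, led by Trav7d-2 (14.3% of Traj7 clones against 2.63% of other clones), Trav9d-3 (8.66% against 3.15%), Trav14d-3-dv8 (6.57% against 1.26%) and Trav12d-2 (6.57% against 2.32%). The 27 bases shown in capitals above closed the CDR3 of 301 Traj7 clones (89.9%). The CDR3 was 13 or 14 amino acids long in 82.1% of Traj7 clones and in 54.9% of others. A CDR3 ends in bases of its J segment, so that a shared end is set by the choice of Traj7, and the length may be in part. The same values were not taken for other J genes. Further frequent chains are shown for the bases before the shared end. The first 3 differ there from the leading Trav7d-2 chain, and the Trav10n chain has the same CDR3 bases as that chain and as the Trav10 chain above, with another V gene name.
Trav7d-2 with Traj7, 123 cells, 5 libraries, 11 TRB chains: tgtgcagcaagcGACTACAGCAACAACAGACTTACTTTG
Trav7d-2 with Traj7, 68 cells, 4 libraries, 4 TRB chains: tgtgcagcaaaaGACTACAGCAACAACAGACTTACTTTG
Trav9d-3 with Traj7, 55 cells, 3 libraries, 3 TRB chains: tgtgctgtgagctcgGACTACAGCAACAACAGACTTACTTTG
Trav10n with Traj7, 31 cells, 3 libraries, 4 TRB chains: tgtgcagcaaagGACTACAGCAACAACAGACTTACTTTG

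Traj7 chains recurred across pools more often than others. Of 268 Traj7 chains 42 (15.7%, 95% exact binomial interval 11.5–20.6%) were found in 2 or more libraries, and of 3319 other chains 128 (3.86%, 3.23–4.57%). Among chains with at least 5 cells, 26 of 59 with Traj7 (44.1%, 31.2–57.6%) were paired with 2 or more TRB chains, against 44 of 172 others (25.6%, 19.2–32.8%). The last 2 intervals overlapped. All these intervals treat chains as independent, and Traj7 was singled out after its values were seen. Traj7 clones also held more cells, on average 3.44 with and 5.35 without PancVAX, against 1.64 and 1.68 for other clones. The part of clone size in these shares was not tested.

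The beta chains beside Traj7 were also uneven. Trbv5 was in 40.9%, 19.1%, 25.0% and 18.2% of distinct Traj7 pairs with PancVAX and in 32.0%, 39.7%, 30% and 39.4% without it. In pairs with other J genes it was in 3.2%, 5.32%, 4.22% and 4.30%, and in 7.87%, 8.31%, 6.33% and 3.66%. Trbv5 was thus higher beside Traj7 in 8 of 8 libraries (log2 fold change 2.47, SE 0.25, adjusted p = 6.08e-17, edgeR with the library as a block). Of 23 segments of either chain tested between Traj7 pairs and other pairs 9 were called (39.1%). The others that rose were Trav7d-2 (2.71), Trav14d-3-dv8 (2.65), Trbv20 (1.63), Trav9d-3 (1.44) and Trav12d-2 (1.35), as log2 fold changes. Those that fell were Trbv12-2+Trbv13-2, contigs given both names (−1.71), Trbv19 (−1.41) and Trbj2-1 (−1.06). A segment could pass the filter on low counts by its share beside Traj7 alone. Trav14d-3-dv8, for one, had a mean of 7.62% beside Traj7 and 1.12% in other pairs. The numbers that rose and fell therefore depend on the filter, and without it more segments fell. Without the library block 1 rose and 1 fell, but the filter then asks for a segment in more sets of pairs, so that fewer could be tested.

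Segment use of CD4+ and CD8+ cells was compared within libraries. CD4+ cells were those with a Cd4 UMI and no Cd8a or Cd8b1 UMI, and CD8+ cells the reverse, which gave 32–138 CD4+ and 138–511 CD8+ TRA clones per library. Of 29 segments tested 12 were called (41.4%), among them 0 TRA segments higher in CD4+ cells and 3 lower, of 8 TRA segments tested (4 with an unadjusted p under 0.05, and 2 higher by DESeq2). Trav16n held 0.865% ± 1.26 of CD4+ and 6.35% ± 2.91 of CD8+ clones (SD, n = 8 libraries each, log2 fold change −2.91, SE 0.50, adjusted p = 0.000394, edgeR). It was at 0 in CD4+ clones of 5 libraries. Traj7 held 2.28% ± 1.91 of CD4+ and 13.6% ± 5.83 of CD8+ clones (log2 fold change −2.12, SE 0.37), and Traj26 held 2.75% ± 3.25 and 5.74% ± 2.47 (−1.37, SE 0.42). Without the library as a block none of the 3 was called. The filter on low counts then asks for a segment in more sets of clones. A segment left untested and a lost difference thus cannot be told apart here. Without the isotype control library, the one with the fewest CD4+ clones, 5 TRA segments were lower. A segment could pass the filter on low counts by its share in 1 kind of cell alone. Trav16n reached at most 3.08% and Traj7 at most 4.17% of CD4+ clones in a library, and both passed through CD8+ clones. The numbers called therefore depend on the filter. Without it, and by cells in place of clones, TRA segments were called in both directions. Over all contigs Traj7 was in 25.8% of those of CD8+ cells and in 3.72% of those of CD4+ cells.

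The RNA rows were tested for PancVAX in Cd3e-positive cells summed by pool, over both preparations. In such sums more cells with a V gene and more of its RNA per cell cannot be told apart. Depth differed between the groups. The median UMIs of Cd3e-positive cells were 3065–3931 in libraries with PancVAX and 3968.5–4719 in those without it, and its part in the results was not tested. Of 11969 genes tested 796 were called (6.65%), 448 higher (3.74%) and 348 lower (2.91%). Of the 128 Trav rows 59 passed the filter on low counts, and 4 of these were called higher and 0 lower (12 had an unadjusted p under 0.05, and DESeq2 also called 0 lower). Over the 16 libraries with preparation as covariate 11 were higher and 1 lower, and 1 was lower in whole tumors alone and with pools paired by antibody. Trav16 was at 9.64, 12.0, 8.74 and 22.9 CPM (UMIs scaled to an equal total per pool) with PancVAX and 1.80, 3.62, 1.84 and 2.15 without it. The groups did not overlap (log2 fold change 2.39, SE 0.22, adjusted p = 0.00105, edgeR). Trav17 (2.04), Trav14d-3-dv8 (1.75) and Trav16n (1.29) were the other 3, as log2 fold changes. Trav16n was at 23.3, 19.7, 20.3 and 21.1 with PancVAX and at 8.99, 4.72, 11.9 and 7.08 without it. Trav7d-2 and Trav6-6, which lost clones, had rows with 12 and 0 UMIs over all Cd3e-positive cells. Without the pool of PancVAX with anti-PD-1 the number of Trav rows called higher was 11, without that of anti-PD-1 it was 9, and without that of PancVAX with both antibodies or that of anti-CTLA-4 it was 2.

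Genes of the receptor complex were read beside the Trav rows. Of 22 genes listed for the TCR and its signaling 19 were tested, 0 were called higher and 4 lower (13 had an unadjusted p under 0.05), against 2.91% lower over all genes tested. The median log2 difference of the list was −0.08, and that of all genes was 0.02. The beta constant genes Trbc1 and Trbc2 fell by a log2 of 0.84 and 0.52, the CD3 chain Cd3g by 0.61 and the coreceptor Cd8a by 0.64. The alpha constant gene Trac (−0.41, adjusted p = 0.0117, edgeR), Cd3d (−0.46) and Cd3e (−0.31) stayed within the fold limit, and Cd247, the zeta chain, was at 0.10. The cells were chosen by a Cd3e UMI, so that the value of Cd3e is bound to that choice and is no result on PancVAX. Cd3e was among the 19 genes tested and the 13 with an unadjusted p under 0.05. Lat (0.46, adjusted p = 0.0114, edgeR) and Cd28 (0.44, adjusted p = 0.049) were higher within the fold limit, so that the list went both ways. Of 10 genes of innate-like T cells Ly6c2 (1.28), Il18r1 (0.75) and Il7r (0.55) rose, and Klrb1c fell by 0.80, against 3.74% higher and 2.91% lower over all genes. Genes listed for other cells were read from the same sums, and they are not confined to those cells. Tcrg-C2 had a UMI in 15.1% of Cd3e-positive cells and Trdc in 1.41%. In CD8+ cells with TRA chains other than Traj7 the gamma-delta list was at 30.2–144 CPM. The NK list was at 64.6–218 CPM in the same cells. All 4 gamma-delta T cell genes tested fell, from a summed level of 147–168 CPM without to 44.8–61.1 with PancVAX. Of 4 NK cell genes 2 fell, Klre1 by 1.35 and Klrb1c by 0.80, and the list was at 135–189 and 73.0–92.6. Klra4 (1.29) and Ncr1 (−1.43) were not called. Of 3 regulatory T cell genes Ikzf2 fell by 0.97 while Foxp3 was at −0.03 and Il2ra at 0.33, and the list was at 248–335 and 186–235. The ranges of these 3 lists, and of the keratin genes below, did not overlap between the groups. How many other genes or lists would show no overlap was not counted. Krt8 and Krt18 together were at 22.1–63.9 without and 83.9–330 with PancVAX. Neither gene passed the test (Krt8 1.33, adjusted p = 0.139, and Krt18 1.15, adjusted p = 0.178, edgeR), and 0 were called. Of 10 macrophage, neutrophil and B cell genes 0 were called. The parts of these cells in the results were not tested.

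The level of all Trav rows together was 3.84, 3.99, 2.92 and 3.58 UMIs per 10000 with PancVAX and 2.97, 2.37, 3.17 and 2.59 without it. The means of 3.58 ± 0.474 and 2.77 ± 0.364 (SD, n = 4 pools each) did not pass the exact permutation test (p = 0.0857, adjusted p = 0.349). Contigs of the 18 V genes with unread rows made up 35.6%, 35.5%, 32.4% and 36.1% of TRA contigs with PancVAX and 45.1%, 47.8%, 38.1% and 43.6% without it. In cells with a contig of the other 49 V genes alone the level was 6.43, 7.05, 5.97 and 7.00 per 10000 with and 5.31, 5.06, 5.89 and 5.15 without PancVAX, a difference of the same direction.

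The RNA of Traj7 cells was compared with that of other CD8+ T cells within the same libraries, a comparison chosen after the use of Traj7 was seen. Of 8966 genes tested in these sums 505 were called (5.63%), 203 higher (2.26%) and 302 lower (3.37%). Among the lower genes S1pr1, a receptor that lets T cells leave tissue, was at 0–32.0 CPM in Traj7 cells and 27.5–198 in other CD8+ cells of the 8 libraries, lower within each library (log2 fold change −3.55, SE 0.25, adjusted p = 2.13e-08, edgeR). Pde2a (−3.26), Klf3 (−3.05) and the transcription factors of naive and memory T cells Lef1 (−3.14) and Tcf7 (−2.51) were also lower. Ly6c2 fell by 2.36, from 588–2144 in other CD8+ cells to 76.7–679 CPM.

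The 6 named higher genes were Cxcl3 (3.39), Gzmg (2.52), Gzmf (1.73), Gzme (1.71), Gzmd (1.68) and Fcrl6 (1.58), as log2 fold changes. Those with Gzm in their symbol are granzymes, proteases of cytotoxic granules, and Gzma, also a granzyme, was at −0.18 and was not called. Gzmf was at 121–1940 CPM in Traj7 cells and 29.2–557 in other CD8+ cells, higher in 8 of 8 libraries. Gzmg was higher in 4 of 8. Cxcl3 was at 220 in Traj7 cells of PancVAX with anti-CTLA-4 and at 0–10.8 in those of the other 7 libraries. Of the TCR list 17 genes were tested, and the signaling adaptor Lat was lower by 0.53 while 0 were higher (10 had an unadjusted p under 0.05). Cd3e, Cd3g and Cd8a were at 0.36, 0.41 and 0.35 and Trac at −0.34, within the fold limit. Of the marker lists of other cells, 1 gene each of the NK, gamma-delta T and regulatory T lists rose, Klre1 (0.99), Tcrg-C2 (0.71) and Ikzf2 (0.68). The summed level of the NK list was 181–261 CPM in Traj7 and 64.6–218 in other CD8+ cells, that of the gamma-delta list 64.7–202 and 30.2–144 and that of the regulatory T list 173–265 and 102.3–230, and all 3 overlapped. Of the macrophage, neutrophil, B cell and keratin genes 0 were called in either direction. The part of such cells in these differences was not tested.

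These differences were smaller in number among expanded clones. With clones of 2 or more cells alone 3 of 7696 genes were higher (0.039%) and 8 lower (0.104%), all 11 of them (0.143%) also called over all clones. S1pr1 (−3.78), Nccrp1 (−2.56), Lef1 (−2.53), Klf3 (−2.52), Itgb7 (−2.24), Dtx1 (−2.15), Ccr2 (−2.0) and Slco3a1 (−1.74) were lower, and Calca (1.86), Mt1 (0.67) and Ccdc50 (0.60) higher. With 1 cell per clone 176 genes were higher and 185 lower. The contrast itself differed between libraries with and without PancVAX in 172 of 8966 genes (1.92%), with the difference of Traj7 minus other cells more positive with PancVAX in 97 (1.08%) and more negative in 75 (0.836%), which says nothing of which of these cells changed. Depth differed between the sets, with a median of 5445–5931.5 UMIs in Traj7 and 3580–4341 in other CD8+ cells with PancVAX, and of 5173.5–6523.5 and 4245–5681 without it. Its part in these differences was not tested.

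Chains of invariant T cells were rare. Trav11 with Traj18, the alpha chain of natural killer T cells, was found in 22 of 6866 TRA cells (0.320%, 95% exact binomial interval 0.201–0.485%), in 1–4 cells of each library. They had 4 nucleotide forms, in which capitals mark the base that differs from the first, counted from 1 at the start of the CDR3.
first form, 10 cells, 7 libraries: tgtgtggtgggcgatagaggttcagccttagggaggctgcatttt
C12G, 6 cells, 5 libraries: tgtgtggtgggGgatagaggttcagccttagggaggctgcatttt
C12A, 4 cells, 4 libraries: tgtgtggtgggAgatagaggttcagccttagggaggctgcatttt
C12T, 2 cells, 2 libraries: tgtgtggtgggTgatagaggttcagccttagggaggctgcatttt
All 4 forms encode the same CDR3 protein. A Cd8a UMI was found in 0 of the 22 cells and in 69.5% of other TRA cells. By the exact interval a count of 0 allows up to 15.4% of cells with a UMI, a limit on detection and not on expression. Of the 22 cells 5 had a UMI of Zbtb16, the transcription factor of these cells, against 0.206% of others. Trbv12-2+Trbv13-2 was the partner in 9 of 20 cells, Trbv13-1 in 4 and Trbv1 in 3. Trav1 with Traj33, the segments of the MAIT cell alpha chain, was in 5 cells (0.0728%, 0.0236–0.170%), 2 with PancVAX and anti-PD-1 and 3 with isotype control. These 5 cells held 4 different CDR3 proteins, and 2 cells shared 1 of them, so that the segments alone did not mark 1 invariant chain. Zbtb16 had a UMI in 2 of the 5 cells, against 0.249% of other TRA cells, Cd8a in 0 and Cd8b1 in 1. The shares of neither V and J combination differed between PancVAX and the rest beyond their spread (exact permutation test, p = 0.257 and p = 1).

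Other values per library did not separate the groups. The mean J number over clones was 28.1 ± 0.171 with and 27.4 ± 1.22 without PancVAX (SD, n = 4 libraries each, exact permutation p = 0.286), a difference of 0.69 that was 0.0879 without the isotype control library. The mean CDR3 length was 13.9 ± 0.0563 and 13.8 ± 0.113 amino acids (exact permutation p = 0.200), and the effective number of Trav genes, the exponential of the Shannon index over clones, was 57.6 ± 1.54 and 56.2 ± 1.28 (exact permutation p = 0.171), while by the inverse Simpson index it was lower with PancVAX, by −2.79. The share of cells with 2 TRB was 3.57% ± 1.12 and 2.39% ± 0.902 (exact permutation p = 0.114). A TRA contig was found in 66.4% ± 13.9 and 72.6% ± 2.22 of Cd3e-positive cells (exact permutation p = 0.600), a difference that turned to 0.517 points higher with PancVAX without the library of PancVAX with anti-PD-1. None of the 11 values passed after adjustment, with adjusted p of 0.349 or more, and 0 of 11 had an unadjusted p under 0.05.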

How the data were processed

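The deposited RNA matrix holds raw UMI counts per gene and barcode of the 16 RNA libraries, and the deposited contig table holds UMI counts, V and J calls and CDR3 sequences of productive contigs of the 8 Percoll libraries. The authors made both with Cell Ranger 4.0.0 (mm10). Barcodes carry a library number. The limits on cells were those of the paper (200–3000 genes, 1000–10000 UMIs, mitochondrial share under 10%, hemoglobin absent) and were applied to RNA and not to contigs, and no doublets were removed. Sums were tested with edgeR 4.0.16 (R 4.3.3; quasi-likelihood, TMM for RNA, number of clones as library size for segments, filter on low counts), adjusted by Benjamini-Hochberg over all genes or all TRA and TRB segments, after a test on simulated data. Single values were compared by an exact permutation test over 70 splits (scipy 1.17.1). Positions came from RefSeq (GRCm38.p6), and all 128 Trav rows matched. Named segments were those called, the 10 most used Trav and Traj genes, the ends of the V cluster, invariant chains and the leading chain per library. Of other genes, the 6 with the largest fold in either direction and a mean of at least 20 CPM were named, except 1 that is not reported here. Members and lists were chosen with earlier results of these data known. The tests of Traj7 partners and of Traj7 RNA, and the copies summed, were added after seeing the data. Alternatives were DESeq2 1.42.0, other scaling, filters, cells, contigs and covariates, pools paired by antibody, and leaving out each pool.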

Additional observations from a re-analysis of the deposited data

Results flagged for a closer look

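Values of single libraries that stood far from the other 3 of their group, by Dixon's criterion, were found in 4 of 82 groups. Chance flags about 1 in 20 groups, a rate that does not apply to the first 3 of the values below, since the other 3 libraries were tied and any deviation is then flagged. The library of PancVAX with anti-PD-1 had a median of 3 UMIs per TRA contig, against 4 in the other 3 with PancVAX. Its share of Trav1-Traj33 cells was 0.171%, against 0% in the same 3. Isotype control had a share of Trav1-Traj33 cells of 0.777%, against 0% in the other 3 without PancVAX, which rested on 3 cells. Its mean J number over clones was 25.6, against 27.8–28.2 in the other 3.

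The contrast of Traj7 against other CD8+ cells was also tested for a difference between libraries with and without PancVAX (edgeR interaction term, 8966 genes tested, 172 called, 1.92%). Among named genes, Gzme had a log2 difference of 2.85 (adjusted p = 1.66e-05), Gzmf of 1.97 (adjusted p = 0.0435) and Fcrl6 of 2.12 (adjusted p = 0.0384), each a larger excess in Traj7 cells with PancVAX. Gzmf was at 29.2–95.8 CPM in other CD8+ cells with PancVAX and at 381–557 without it. Trbc1 differed by 0.92 (adjusted p = 0.00397) in the same direction. Lat (−0.65, adjusted p = 0.000586), Cd28 (−0.52, adjusted p = 0.0414) and Klrk1 (−0.59, adjusted p = 0.0478) differed in the other direction. The causes of these differences were not tested.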

How the results depend on the processing

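The labels give no replicate numbers, and CD4+ and CD8+ cells and both kinds of chain pairs were blocked by library. With the antibody treatment as a block of 4 matched pairs of pools, chosen after seeing the data, 5 TRA segments were higher and 4 lower, and 4 Trav rows were higher and 1 lower. Exact sign flips over these pairs gave p of 0.125 or more for all 11 single values, 0.125 being the smallest possible. The causes of the changes below were not tested, except where fewer segments, cells or pools entered. Leaving out each pool moved the difference of the share with 2 TRA between 1.88 and 3.58 points, of Cd3e-positive cells with a TRA contig between −9.87 and 0.517 (reversed without PancVAX with anti-PD-1), of Trav1-Traj33 cells between −0.216 and 0.0428 (reversed without isotype control), of Trav11-Traj18 cells between −0.345 and −0.121, of the leading row being that of the contig between 2.56 and 6.24, of the mean J number between 0.0879 (without isotype control) and 0.959, of the CDR3 length between 0.0536 and 0.142 (exact permutation p = 0.0286 without both antibodies), and of Trav UMIs per 10000 between 0.673 and 1.03 (exact permutation p = 0.0286 without PancVAX with anti-PD-1). Without 1 pool the effective number of Trav genes differed by 0.952–2.15. By the inverse Simpson index the effective number of Trav genes was lower with PancVAX, by −2.79. Trav rows called higher with PancVAX (4) were 2–11 without 1 pool, 11 over 16 libraries and 8 with 2 or more Cd3e UMIs, and those called lower (0) were 1 over 16 libraries and 1 in whole tumors. TRA segments called higher with PancVAX (5) were 2–6 without 1 pool, 1 by DESeq2, and 3 each without a filter, by cells, with 3 UMIs per contig, without antibody covariates, without Traj7 and in CD8+ cells. Those called lower (4) were 2–4 without 1 pool, 1 by DESeq2, and 2 each by cells, with 3 UMIs per contig and without Traj7. Both counts were 2 without PancVAX with both antibodies, PancVAX with anti-PD-1 or anti-PD-1, 2 were higher without both antibodies, and 2 were lower without anti-CTLA-4. Between CD4+ and CD8+ cells, 0 higher became 10 by cells, 2 by DESeq2, 7 without a filter and 0–1 without 1 pool, and 3 lower became 6 by cells, 9 without a filter, 0 without the library block and 2–5 without 1 pool. Beside Traj7, 6 higher became 1 without the block, 10 by DESeq2 and 4–7 without 1 pool, and 3 lower became 1 without the block, 16 by DESeq2, 23 without a filter and 3–5 without 1 pool. In RNA of Traj7 cells, 203 higher became 3 in expanded clones, 382 with and 31 without PancVAX and 127–234 without 1 pool, the lowest without PancVAX with both antibodies, and 302 lower became 185 with 1 cell per clone, 8 in expanded clones, 188 by DESeq2, 116 without PancVAX and 217–324 without 1 pool. Of the named segments and genes, 41 of 359 values without 1 pool and 51 of 310 in other settings were no longer past the threshold, and 0 changed direction. All contigs deposited were productive, so that an alternative with other contigs was not run.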
